A study of Mus musculus with 2 samples.

Results

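The Smad proteins and the Ski corepressors, which carry and restrain signals of the TGF-beta family, were compared between wild type and TIF1γ-deleted blood progenitors at the level of every probe set. The 10 genes were Smad1, Smad2, Smad3, Smad4, Smad5, Smad6, Smad7, Smad9, Ski and Skil, out of 18193 genes with a probe set of their own. They were chosen by family membership in the platform annotation, by a rule that uses no signal, and 22 probe sets belonged to them. Earlier results of these data were known when the members and the gene lists below were chosen. No probe set shared by several genes included any of the 10.

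The data were total RNA of 2 samples, each on 1 Affymetrix array. Both were KLS cells sorted from mouse bone marrow, a fraction of haematopoietic stem and progenitor cells selected as lineage-negative, c-kit-positive and Sca-positive. The genotype was wild type on 1 array and TIF1γ Δ/Δ on the other, the latter from mice in which the TIF1γ gene (Trim33) had been inactivated conditionally. The sources used here do not give the Cre driver, the age of the mice or the number of mice behind each sample. With 1 array per genotype there were no replicates, so no difference below has a replicate error, a test or a p-value.

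Ligands of the TGF-beta family bring together type II and type I receptors, and the type I receptor then phosphorylates a receptor-regulated Smad. TGF-beta and activin act mainly through Smad2 and Smad3, and bone morphogenetic proteins (BMPs) through Smad1, Smad5 and Smad9. The phosphorylated Smad joins the common partner Smad4, and the complex binds DNA in the nucleus. Smad6 and Smad7 are inhibitory Smads that are themselves induced by the pathway, and Ski and Skil (SnoN) bind Smad complexes and recruit histone deacetylases. TGF-beta is known for holding haematopoietic stem cells out of the cell cycle. TIF1γ is known both as a partner of phosphorylated Smad2 and Smad3 and as a ubiquitin ligase for Smad4.

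RefSeq promoter windows on GRCm38.p6, each running from 250 bases before to 50 bases after a gene's start, were held for 6 of the 10 genes, in 8 windows. Smad1 and Smad5 are shown because they had the largest gene-level differences, and Smad6 because its window holds a complete Smad palindrome. Capitals mark GTCTAGAC, the palindromic Smad binding element, and GGCGCC, the GC-rich palindrome found in BMP-responsive enhancers. Both motifs read the same on either strand and do not overlap each other. Each window is written 5' to 3' on the strand of its gene.
Smad1, chr8:79399379-79399678, minus strand: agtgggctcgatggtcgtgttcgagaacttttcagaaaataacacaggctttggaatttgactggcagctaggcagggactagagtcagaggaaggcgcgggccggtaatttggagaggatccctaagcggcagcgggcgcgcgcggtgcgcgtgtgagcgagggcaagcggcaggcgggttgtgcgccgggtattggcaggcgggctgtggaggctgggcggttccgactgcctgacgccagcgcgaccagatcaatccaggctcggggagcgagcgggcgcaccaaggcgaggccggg
Smad5, chr13:56702760-56703059, plus strand: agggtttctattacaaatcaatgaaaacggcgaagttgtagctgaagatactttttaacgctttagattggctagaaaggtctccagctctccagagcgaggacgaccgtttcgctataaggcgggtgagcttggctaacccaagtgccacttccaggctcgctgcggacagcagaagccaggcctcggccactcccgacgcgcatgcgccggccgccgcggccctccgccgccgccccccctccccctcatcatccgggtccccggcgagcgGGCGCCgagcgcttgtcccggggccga
Smad6, chr9:64022010-64022309, minus strand: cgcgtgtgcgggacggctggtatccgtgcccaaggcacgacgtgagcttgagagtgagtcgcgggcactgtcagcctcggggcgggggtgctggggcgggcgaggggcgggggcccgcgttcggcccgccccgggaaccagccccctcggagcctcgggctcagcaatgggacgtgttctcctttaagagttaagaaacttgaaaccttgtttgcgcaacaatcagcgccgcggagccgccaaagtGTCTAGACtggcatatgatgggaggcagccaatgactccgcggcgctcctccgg
GTCTAGAC lay at positions 247 to 254 of the Smad6 window, counted from 1 at its 5' end, and was present in 1 of the 8 windows. Of 32851 promoter windows of this length in the mouse table, 70 held it, or 0.213%. GGCGCC was found in 4 of the 8 windows, against 11.9% of all windows, and 2 of the 4 are overlapping Smad5 windows that share 1 match. It lay at positions 274 to 279 of the Smad5 window shown, 200 to 205 of that of Smad9 and 31 to 36 of that of Ski. The shorter half-element CAGAC, or GTCTG on the other strand, was found in 1 of the 8 windows, that of a further Smad5 start, against 49.6% of all windows. GTCTAGAC does not contain this half-element. The 8 windows were 63% to 85.3% G and C, and the shares over all windows were not matched for this content. Whether the counts differ from those of windows of like content was not tested. A match is a run of letters and shows no binding, and a window without one says only that these letters are not in it.

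Signals are MAS5 probe set intensities, whose linear scale differs from probe set to probe set, so the level of one gene was not set against that of another. A probe set was taken as measured on an array when it reached that array's median signal, a floor of 14.4 for wild type and 11.7 for TIF1γ Δ/Δ. Differences are log2 signal on the TIF1γ Δ/Δ array minus log2 signal on the wild type array, after removal of the median difference of all measured probe sets, which was -0.024. Of the 22 probe sets, 18 were measured on both arrays, 1 on the wild type array only and 3 on neither. Of these 18, 16 were higher and 2 lower on the TIF1γ Δ/Δ array, with a median difference of 0.41. Among all 20445 probe sets measured on both arrays, 50% were higher, as centring on the median fixes.

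**Figure D1:**
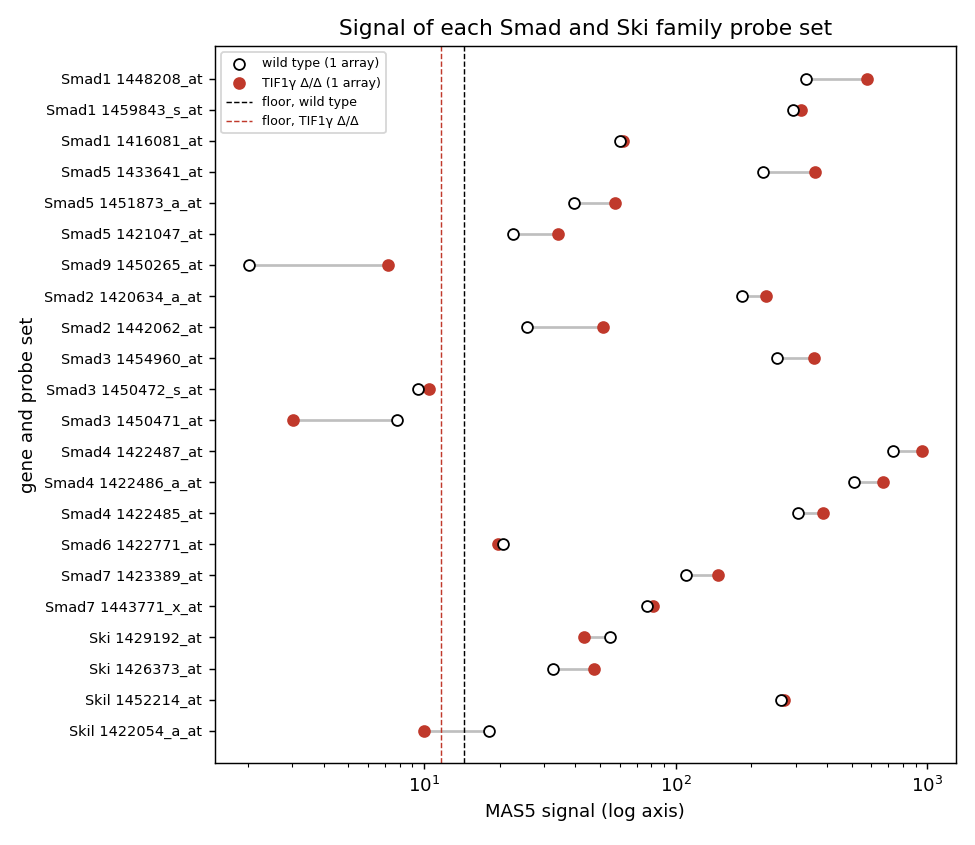
MAS5 signal of the 22 probe sets of the Smad and Ski family genes (log axis) on the wild type array (open circles) and the TIF1γ Δ/Δ array (filled circles), 1 array each, with each array's floor as a dashed line. All 3 probe sets of Smad5 and all 3 of Smad4 lie to the right on the TIF1γ Δ/Δ array, whereas the probe sets of Ski go opposite ways and that of Smad9 lies under both floors.

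Among the BMP-activated Smads, Smad1 and Smad5 were higher in TIF1γ Δ/Δ cells, and Smad9 was under the floor. The brightest Smad1 probe set, 1448208_at, read 330.4 in wild type and 576 in TIF1γ Δ/Δ cells, a log2 difference of 0.83 or 1.77-fold. Its other probe sets differed far less. Probe set 1459843_s_at gave 292 and 314 (log2 0.13), and 1416081_at gave 60.01 and 61.9 (log2 0.069). The 3 probe sets of Smad1 thus spread over 0.76 on the log2 scale, and after loess scaling that of 1459843_s_at was at -0.0046.

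Smad5, which carries the same BMP signals as Smad1, was higher on all 3 of its probe sets by a like amount. The brightest, 1433641_at, read 222 in wild type and 358 in TIF1γ Δ/Δ cells (log2 0.71, 1.64-fold). Probe set 1421047_at gave 22.6 and 34.0 (log2 0.61), and 1451873_a_at gave 39.5 and 57.7 (log2 0.57). Their spread was 0.14, and under no centring, quantile and loess scaling the 3 values ran from 0.55 to 0.83. The single probe set of Smad9, 1450265_at, gave 2.01 and 7.18, under the floor on both arrays, so no fold is given.

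Of the TGF-beta and activin Smads, both Smad2 and Smad3 were higher in TIF1γ Δ/Δ cells. The brighter Smad2 probe set, 1420634_a_at, which can match several transcripts of the gene, read 184 in wild type and 229 in TIF1γ Δ/Δ cells (log2 0.34, 1.27-fold). The dimmer one, 1442062_at, gave 25.8 and 51.4 (log2 1.02, 2.03-fold). It was the only one of the 18 probe sets at least 2-fold apart, where by that size 2.69% of all such probe sets were higher and 5.93% lower. Without centring its difference was 0.996, just under the threshold.

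Smad3 rested on 1 probe set. Probe set 1454960_at read 252 in wild type and 355 in TIF1γ Δ/Δ cells (log2 0.52, 1.43-fold). Its other probe sets were under the floor on both arrays, 1450472_s_at at 9.44 and 10.5 and 1450471_at at 7.80 and 3.02. They give no fold, and the sources used here do not say which part of the transcript each probe set reads.

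Smad4, the common partner of both branches and the Smad described as a substrate of TIF1γ, was higher by nearly the same amount on all 3 probe sets. Probe set 1422487_at read 728 in wild type and 951 in TIF1γ Δ/Δ cells (log2 0.41, 1.33-fold). Probe set 1422486_a_at gave 509.9 and 669 (log2 0.42). Probe set 1422485_at gave 307 and 386 (log2 0.35). The spread of 0.061 was the smallest among the 6 members with several probe sets measured on both arrays. These are RNA signals and carry no measure of the Smad4 protein.

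The inhibitory Smads differed from each other. Smad7, which blocks type I receptors and recruits ubiquitin ligases to them, read 109.7 in wild type and 148 in TIF1γ Δ/Δ cells with 1423389_at (log2 0.45, 1.37-fold). Its second probe set, 1443771_x_at, a type that can cross-hybridise, gave 77.3 and 81.0 (log2 0.091). Smad6, which acts mainly on the BMP branch and whose promoter window carries the palindrome above, gave 20.6 and 19.6 with its only probe set, 1422771_at. That difference of -0.046 turned to 0.17 with loess and 0.22 with quantile scaling, so Smad6 has no settled direction here. Its signal also lay close to the floor.

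The corepressors had no common direction either. The brighter Ski probe set, 1429192_at, read 54.7 in wild type and 43.4 in TIF1γ Δ/Δ cells (log2 -0.31). The other, 1426373_at, gave 32.7 and 47.3 (log2 0.56). Both signs held under no centring, quantile and loess scaling, so the probe sets of Ski disagree by 0.87, the widest spread of any member. Skil gave 263 and 269 with 1452214_at (log2 0.056), a value that was -0.041 with quantile and -0.080 with loess scaling. The dim Skil probe set 1422054_a_at read 18.1 in wild type and 10.01 in TIF1γ Δ/Δ cells, the latter below its floor, which makes it at least 1.52-fold lower.

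**Figure D2:**
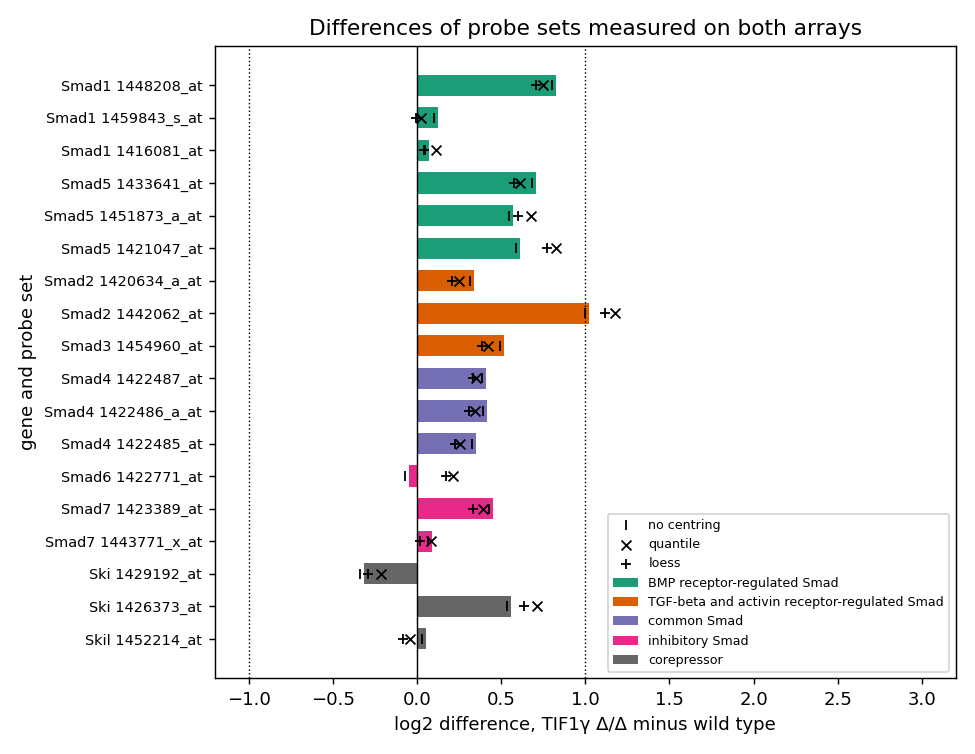
Log2 difference, TIF1γ Δ/Δ minus wild type, of the 18 probe sets measured on both arrays, coloured by the role of the gene, with the value under no centring, quantile and loess scaling as marks and 2-fold as dotted lines (1 array per genotype, so no error bars). Receptor-regulated and common Smads lie to the right of 0 with median centring, and only 1442062_at of Smad2 reaches 2-fold.

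Grouped by role, the medians over probe sets were higher for the receptor-regulated and common Smads than for the inhibitory Smads and corepressors. All 6 measured probe sets of Smad1 and Smad5 were above 0, with a median of 0.59. The 3 of Smad2 and Smad3 had a median of 0.52 and a lowest value of 0.34. The 3 of Smad4 had a median of 0.41. For the inhibitory Smads the median of 3 probe sets was 0.091, from -0.046 to 0.45, and for the corepressors the median of 3 was 0.056, from -0.31 to 0.56. Probe sets of 1 gene share the sample and are not replicates, and the difference between roles was not tested. By gene the order is less clear, with Smad7 (0.45) above Smad4 (0.41) and Smad2 (0.34).

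With each gene represented by its brightest measured probe set, 9 members were measured, all of them on both arrays. None of the 9 reached 2-fold in either direction, by size alone and with no test, beside 2.53% and 6% of all 11752 genes measured on at least 1 array. The choice of probe set decides this count. Without probe sets that can match several transcripts, Smad2 is represented by 1442062_at and 1 member is 2-fold higher. At 1.5-fold, 2 of the 9 were higher, Smad1 and Smad5, and none lower, beside 13.4% and 15.3% of all genes. For Smad1 this rests on 1 of 3 probe sets, and the mean of its probe sets was 0.34, under that size. Of the 9, 7 were above 0, and Smad6 and Ski were below. Among all genes measured on both arrays, as the 9 were, 53.1% were above 0, and among those measured on at least 1 array 49.9%.

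The members' median was 0.41 and their mean 0.33. The median of all genes measured on both arrays was 0.044, and that of all genes measured on at least 1 array was -0.00061. Genes were ranked by the signed difference of their brightest measured probe set. Smad1 lay above 94.5% of the 10365 genes measured on both arrays, and Smad5 above 90.7%. For Smad3 this share was 82.6%, for Smad7 78.6%, for Smad4 75.8% and for Smad2 71.3%. Skil at 50.9%, Smad6 at 43.6% and Ski at 25.4% lay nearer the middle or below it. Dimmer probe sets ranked otherwise among all probe sets measured on both arrays. Those of Smad1 lay above 59.2% and 54.9%, that of Ski above 85.3% and that of Smad2 above 97.5%. With loess scaling, which removes a trend with signal strength, the members' median was 0.34 and that of all genes 0.014. With quantile scaling these were 0.35 and 0.051. With its brightest probe set Smad1 was 1.5-fold higher under both, but Smad5 was just under that size with loess scaling (log2 0.58).

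**Figure D3:**
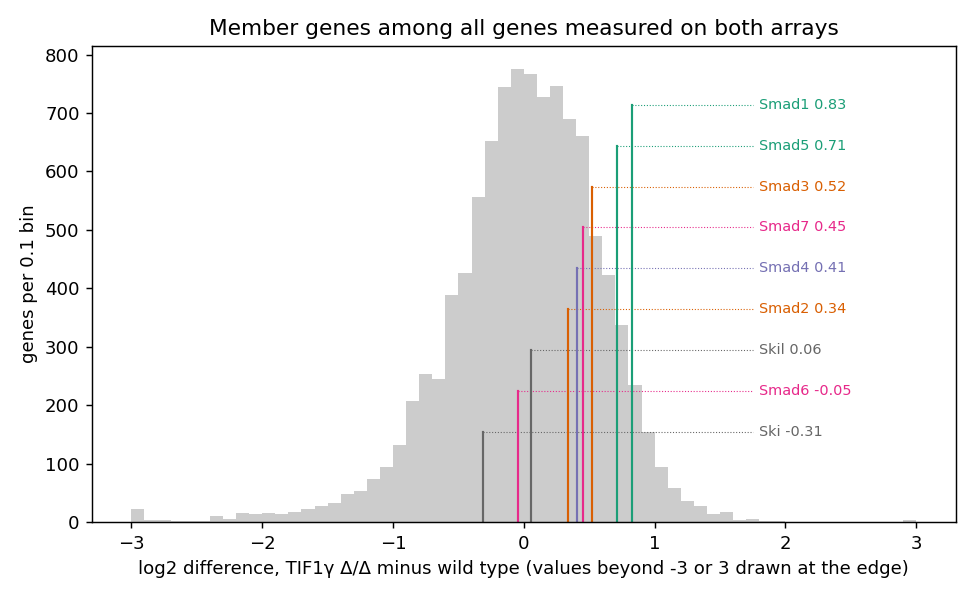
Log2 difference, TIF1γ Δ/Δ minus wild type, of the 10365 genes measured on both arrays (grey, genes per bin), with the 9 measured member genes as coloured lines by role. The members run from -0.31 (Ski) to 0.83 (Smad1) with 25.4% to 94.5% of these genes below them, and 7 of the 9 lie to the right of 0.

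The scatter between probe sets of 1 gene gives a scale for these sizes, though it says nothing of variation between mice. Its SD, in log2 units, was 0.45 over 4534 genes with several measured probe sets, and 0.34 over the 6 members that had them. In the main setting the gene-level differences of Smad1, Smad5 and Smad3 exceeded 0.45, and that of Smad7 lay just under it. Those of Smad2, Smad4, Smad6, Ski and Skil were smaller. Smad3 fell under 0.45 with quantile (0.42) and loess (0.39) scaling, and Smad1 with the mean of its probe sets (0.34). Smad2 exceeded it without shared probe sets (1.02), and Smad7 with the floor at the 40th percentile (0.48).

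Other transcripts of the sorted cells differed far more. The targeted gene, Trim33, read 379 in wild type and 172 in TIF1γ Δ/Δ cells with its brightest probe set, and 2 of 2 probe sets measured on both arrays were lower. Whether these read the deleted part of the gene is unknown, which limits it as a check of the genotypes. Of the sort's own markers, Kit (c-kit) was measured on both arrays, and Ly6a (Sca-1) was not analysed here. Of 21 measured markers of mature neutrophils and macrophages, 21 reached the floor in wild type and 10 in TIF1γ Δ/Δ cells, with summed signals of 48895 and 6485. At 2-fold, bounds included, 19 of them were lower, among them S100a8 (9568 and 53.6). Of 11 erythroid markers 7 were at least 2-fold lower (summed 7443 and 3629), as were 3 of 6 B cell markers (5014 and 4640, or 668 and 201 without Jchain) and 4 of 7 T and NK cell markers (391 and 116). Of 7 megakaryocyte markers 2 were higher (1822 and 2914), and of 5 stroma and endothelium markers 2 were higher and 2 lower (464 and 409). The 12 measured stem and progenitor markers had summed signals of 5837 and 7395 and a median of 0.23, with 2 at least 2-fold higher and 0 lower. Of all genes measured on at least 1 array, 2.53% were 2-fold higher and 6% lower. What part the marker shifts play in the Smad values was not tested, and fewer cells of a type cannot be told apart from less RNA per cell. The ratio of 3' to 5' signal in wild type and TIF1γ Δ/Δ cells was 7.86 and 7.38 for Gapdh and 5.14 and 5.54 for actin. For these genes the signal was thus much stronger toward the 3' end on both arrays. What part this plays in the dim probe sets and the spread between probe sets of 1 gene was not tested.

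Upstream of the Smads, ligands, traps and receptors showed no common direction. Of 14 ligand genes with a probe set, 4 were measured and none was 2-fold apart. Tgfb1 read 69.4 in wild type and 98.2 in TIF1γ Δ/Δ cells (log2 0.52), with 1 of its 2 probe sets higher and 1 lower. Bmp7 reached its floor in TIF1γ Δ/Δ cells only (8.46 and 15.4). The activin subunits Inhba (21.6 and 2.49) and Inhbb (20.5 and 4.87), named after their values were seen, reached it in wild type only. The median of the 4 was -0.34, but only 1 of them, Tgfb1, was measured on both arrays, so it rests largely on the floor. With quantile scaling it was -0.056 and with loess scaling -0.070. Of 6 measured ligand traps and activators none was 2-fold apart, with the latent TGF-beta binding protein Ltbp3 at 706 and 962 (log2 0.47) and Itgav at log2 -0.091. Among 12 measured receptors and co-receptors the median was -0.0059. The activin type I receptor Acvr1b, which phosphorylates Smad2 and Smad3, gave 141 and 282 (log2 1.02) and was the 1 of the 12 that reached 2-fold.

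Among proteins that act on the Smads themselves, most measured genes were above 0, where 53.1% of all genes measured on both arrays were, at a median of 0.044. Of 15 measured anchors, phosphatases and transport factors, 12 of the 14 seen on both arrays were above 0, with a median over the 15 of 0.46, which was 0.30 with the mean of probe sets. The import factor Ipo7 gave 617 and 1349 (log2 1.15), with 1 of 2 probe sets higher. For 13 ubiquitin ligases and deubiquitinases the median was 0.28, but -0.014 without probe sets shared between transcripts. Of the 13, 1 was 2-fold higher and 1 lower. The higher one was Rnf111 (Arkadia), a ligase that degrades Smad7, Ski and Skil, at 88.2 and 184 (log2 1.08, 1 probe set), and the lower one was Trim33 itself. The Arkadia substrates Smad7, Ski and Skil had gene-level RNA differences of 0.45, -0.31 and 0.056 on the same arrays, with the probe sets of Ski going opposite ways. These signals carry no measure of the proteins on which the ligase acts.

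The coactivators and the corepressor partners had medians above that of all genes, a difference that was not tested. Its size depended on the probe set rule. Over the 10 settings the coactivator median ran from 0.12, with the mean of probe sets, to 0.33. That of the corepressor partners ran from 0.10, without probe sets shared between transcripts, to 0.32. Of 21 coactivators and DNA-binding partners, all measured on both arrays, 18 were above 0, beside 53.1% of all genes so measured. Their median was 0.24, and 3 were at least 2-fold higher, beside 2.53% of all genes measured on at least 1 array. The 3 were Gata2 (log2 1.40), Runx3 (log2 1.14) and the acetyltransferase Kat2a (log2 1.06, 2 of 3 probe sets). Of 14 measured corepressor partners of Smads and Ski, 12 were above 0 and none reached 2-fold, at a median of 0.29. Sin3a, named after its value was seen, lay just under 2-fold (log2 0.9996, 2 of 3 probe sets higher). Ctbp1 gave 1047 and 1227 (log2 0.25), and the deacetylase Hdac1, which Ski complexes recruit, gave 962 and 931 (log2 -0.022). The Ski relatives Dach1 (log2 0.023) and Dach2 (log2 -0.23) were both under 2-fold apart, and 3 measured TIF1 family genes held 1 at 2-fold, Trim33.

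Genes known to respond to TGF-beta or BMP through Smads went both ways. The list does not separate genes that these signals raise from genes that they lower. Its counts and median therefore give no direction of pathway output. The 20 measured had a median of -0.17, and the 14 of them measured on both arrays had one of -0.13. Of the 20, 2 reached 2-fold on the higher and 6, bounds included, on the lower side, beside the 2.53% and 6% of all genes. The higher ones were the cell cycle inhibitor Cdkn1a, at 2.83-fold on its brightest of 2 probe sets, and cyclin D1 (Ccnd1, log2 1.56). Id2 (log2 -2.31) and Tgfbi (log2 -2.03, 3 of 3) were the furthest apart on the lower side among genes measured on both arrays. The BMP target Id1, named here after its value was seen, read 26.4 and 8.29, the latter below its floor, which makes it at least 2.23-fold lower. Smad6 and Smad7, which are also induced by these signals, were at -0.046 and 0.45 beside them. The low neutrophil and macrophage markers of the TIF1γ Δ/Δ array (summed 48895 and 6485, as above) lie beside these values, and their part in them was not tested.

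**Figure D4:**
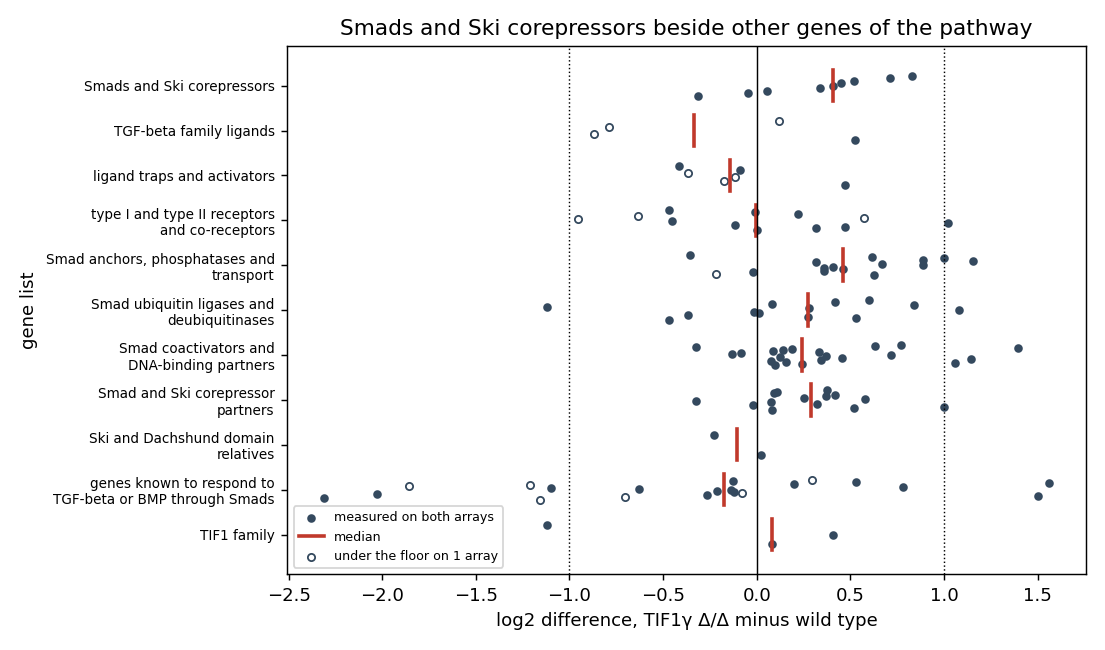
Log2 difference, TIF1γ Δ/Δ minus wild type, of each measured gene of the Smad and Ski family and of 10 further pathway lists, with filled points for genes measured on both arrays, open points for genes under the floor on 1 array, the median as a red line and 2-fold as dotted lines. The family's median of 0.41 lies beside 0.46 for Smad anchors and transport, and the responsive genes spread from -2.31 to 1.56.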

How the data were processed

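Probe set intensity values on a linear scale were deposited by the authors as 1 column per array. Per the submitters' processing notes they come from MAS5, and the sources used here give no version or filter. Biotin-labelled cRNA was made from 25 ng of total RNA by a 2-cycle assay, per the labels' protocols. After trimming 2% at each end, the mean intensity was 100.0 on each array, so the arrays had already been scaled. The 64 control probe sets of 45101 were left out. MAS5 subtracts mismatch signal, so low values are noisy and a floor was set at each array's median. A signal under the floor on 1 array was replaced by the floor there, and a gene under it on both arrays has no fold. For a gene measured on the TIF1γ Δ/Δ array only, the value can lie below 0, because the floor was lower there. It is then only a lower limit of the difference and gives no direction. List medians over genes measured on at least 1 array include such values.

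Probe sets were assigned through the platform annotation with symbols updated by Entrez identifier to RefSeq on GRCm38.p6, and each gene was represented by its probe set with the highest mean log2 intensity. Counts use a rule of size, 2-fold. Members, gene lists and settings were chosen with earlier results of these data known. Pathway genes named are up to 4 per list at least 2-fold apart, or else the 2 brightest. No genes were ranked by likeness to a member, since with 2 arrays a pattern is 1 ratio. Alternatives were scaling, floor, probe set rule, a pseudocount and fold threshold. The script was tested on simulated data. Python 3.11.15, numpy 2.4.6, pandas 2.3.3, statsmodels 0.14.6 and matplotlib 3.10.9 were used.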

Additional observations from a re-analysis of the deposited data

How the results depend on the processing

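With 1 array per genotype no result has a replicate error. A change of setting was therefore held against the scatter between probe sets, 0.45 on the log2 scale. The number of members at least 2-fold higher was 0, but 1 without probe sets shared between transcripts and 2 at a threshold of 1.5-fold. None was 2-fold lower under any setting run. The members' median ran from 0.34 to 0.45 over the 10 settings. Smad1 moved from 0.83 to 0.34 with the mean of its measured probe sets, and Smad2 from 0.34 to 1.02 without shared ones. Ski ran from -0.37 to 0.12, Smad6 from -0.072 to 0.22 and Skil from -0.28 to 0.086, so these 3 have no settled sign. Raising the floor to the 65th percentile leaves Smad6 without a value. Smad1, Smad2, Smad3, Smad4, Smad5 and Smad7 stayed above 0 in all 10, though the sizes of Smad1 and Smad2 moved as given above. Raising the floor to the 65th percentile, which leaves fewer genes measured, put the median of the ligands at 0.47, and that of the TIF1 family was -0.52 without shared probe sets. No paired analysis was possible because each group held 1 array.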
